A study of Arabidopsis thaliana with 2 samples.

Results

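The genes of the Calvin cycle and of photorespiration were followed in rosettes of Arabidopsis thaliana, as 32 genes taken by locus identifier, of 23147 genes listed in either of 2 RNA sequencing libraries. They comprise 20 Calvin cycle genes and 12 photorespiration genes, and all 32 were listed in both libraries. One library came from a transgenic line, called C3A here, in which a pbl19 null mutant carries PBL19 with cysteine 3 replaced by alanine, under the PBL19 promoter and joined to GFP and an HA tag. The other came from the wild type, Col-0. Both were untreated, of the Col-0 ecotype and 28 days old. PBL19 belongs to the receptor-like cytoplasmic kinases, which relay signals from immune receptors. The comparison asks which genes differ in level when the altered kinase is present. The sources used here do not state how many plants or transgenic lines the C3A library represents, and no line with an unaltered PBL19 transgene was among the samples analysed here, so the null allele, the substitution, the tags and the PBL19 level cannot be told apart. With 1 library per genotype there was no test between genotypes, and intervals below cover counting error only. In such bulk rosette tissue, fewer cells of a type and less RNA per cell cannot be told apart.

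The Calvin cycle fixes carbon dioxide in the chloroplast. Rubisco adds it to ribulose bisphosphate, the product is reduced to triose phosphate with ATP and NADPH, and the remaining enzymes regenerate the acceptor. Rubisco also reacts with oxygen, which gives phosphoglycolate. Photorespiration salvages that compound through the chloroplast, the peroxisome and the mitochondrion, where glycine is decarboxylated and serine is made, and returns glycerate to the chloroplast. Leaf cells hold transcripts of these enzymes at high levels in the light.

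The C3A library held 12001808 estimated counts and the wild type library 11937705. PBL19 itself, the check of the labels, was at 466 FPKM in C3A and 6.68 FPKM in the wild type (FPKM is the count scaled for gene length and for the size of the library). It was 69.7-fold higher (59.7 to 81.9), and AT5G47060 overlaps it on the opposite strand. The leaf markers PSBO1, CA1 and LHCB3 were abundant in both libraries and each lower in C3A. They were between 755 and 2147 FPKM in C3A and between 2172 and 4001 FPKM in the wild type. PSBO1 and LHCB3 also belong to the antenna and photosystem list read below. The guard cell marker KAT1 was at 3.37 FPKM in C3A and 8.42 FPKM in the wild type, 2.50-fold lower (2.02 to 3.1), and FAMA, of the same lineage, at 7.27 FPKM in C3A and 9.96 FPKM in the wild type, 1.37-fold lower (1.12 to 1.68). The trichome marker GL2 was at 6.75 FPKM in C3A and 5.62 FPKM in the wild type. FT was listed at 0.30 FPKM in C3A and was unlisted in the wild type. Of these rosette markers, 6 had at least 1 FPKM in either library. On the scale of log2(FPKM + 1), 5 of the 6 lay below 0, against 38.1% of all such genes. At least 2-fold lower were 3 of the 6, against 2.85%. Flower and seed markers were absent or nearly so: AP1 and AP3 were unlisted in both libraries, and AG and CRA1 stayed at or under 0.20 FPKM. All 7 root markers were lower in C3A, against 38.1% of all genes with at least 1 FPKM in either library. They were at 0.94 to 21.2 FPKM in C3A and 1.73 to 31.0 FPKM in the wild type. Their sum was 37.2 FPKM in C3A and 74.2 FPKM in the wild type. On the scale of log2(FPKM + 1), 3 of them were at least 2-fold lower, against 2.85% of all genes. Under the other scalings and pseudocount tried the count was 4 or 5, against 3.09% to 4.67% of all genes. The part of these markers in the results below was not tested.

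Transcripts of both pathways were lower in the C3A library almost throughout. On the scale of log2(FPKM + 1), C3A over wild type, 30 of the 32 genes lay below 0, against 38.1% of the 19527 genes with at least 1 FPKM in either library. The median of the 32 genes was -0.61, with a range of -1.37 to 0.10, while the median of all 19527 genes was 0.14. All 32 lay below that median of all genes, on the deposited scale and under each other scaling tried. Lower by at least 2-fold were 5 genes, against 2.85% of all genes. These were GLDP1, SHM1 and HPR1 of photorespiration and RBCS2B and PRK of the Calvin cycle. At a threshold of 1.5-fold, 18 genes were lower, against 8.9% of all genes, and none of the 32 was higher by either threshold, against 7.89% of all genes at 2-fold and 18.6% at 1.5-fold. A group nearer in level to these enzymes, the 1235 genes with at least 100 FPKM in either library, was added after seeing the data. Of these 1235, 5.99% were at least 2-fold lower, 17.4% were at least 1.5-fold lower and 40.6% lay below 0. Setting the median ratio of all genes to 1 raised the count of genes at least 2-fold lower to 11 of 32, against 3.96% of all genes on that scale. There all 32 lay below 0, against 49.8% of all genes.

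The 32 genes together took 3.23% of all counts in C3A (95% exact binomial interval 3.22 to 3.24) and 5.05% in the wild type (5.04 to 5.07). Calvin cycle genes held 2.59% of counts in C3A and 3.99% in the wild type. Photorespiration genes held 0.645% in C3A and 1.07% in the wild type. Among the 100 genes with the highest FPKM, 6 of the 32 were found in C3A and 10 in the wild type. The median log2 ratio was -0.60 for the 20 Calvin cycle genes and -0.73 for the 12 photorespiration genes, and the 2 pathways overlapped widely. Calvin cycle genes ranged from -1.21 to 0.10 and photorespiration genes from -1.37 to -0.18.

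**Figure D1:**
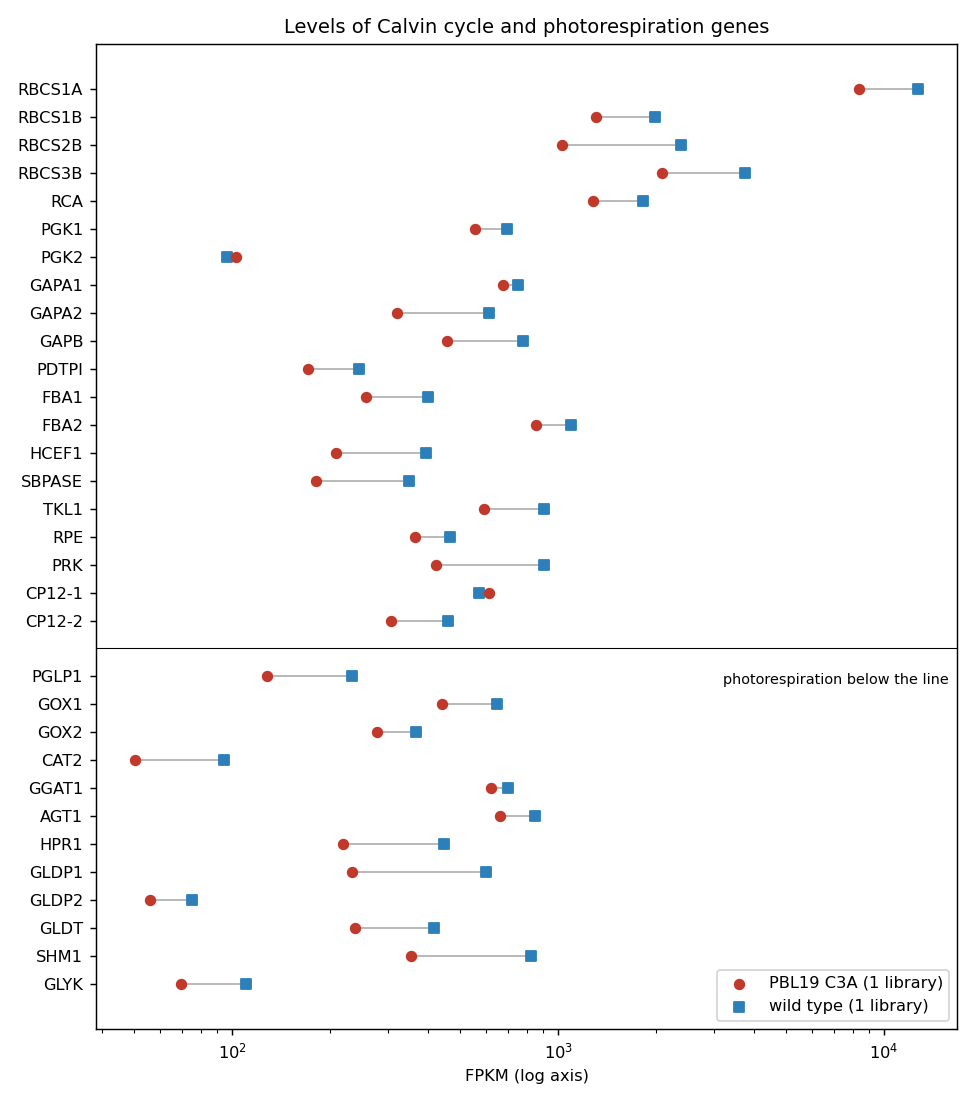
FPKM of each gene on a log axis in the PBL19 C3A library (red circles) and the wild type library (blue squares), 1 library each, with Calvin cycle genes above the line and photorespiration genes below it. The red circle lies left of the blue square for 30 of 32 genes, and right of it for PGK2 and CP12-1.

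Rubisco is built from a large subunit made in the chloroplast and a small subunit encoded by 4 nuclear RBCS genes. RBCS1A (AT1G67090) lies on chromosome 1 at 25048158 to 25049667 (TAIR10.1), and the other three lie in tandem on chromosome 5, RBCS3B (AT5G38410) at 15376988 to 15378642, RBCS2B (AT5G38420) at 15380907 to 15382071 and RBCS1B (AT5G38430) at 15383167 to 15385320, all on the minus strand. Their coding sequences are close, which bears on how far reads can be assigned to single genes. The first 60 coding bases of each, from the RefSeq annotation of TAIR10.1, are shown with the bases that differ from RBCS1A in capitals.
RBCS1A: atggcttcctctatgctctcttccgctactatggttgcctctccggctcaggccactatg
RBCS1B: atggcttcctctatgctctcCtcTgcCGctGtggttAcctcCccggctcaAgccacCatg
RBCS2B: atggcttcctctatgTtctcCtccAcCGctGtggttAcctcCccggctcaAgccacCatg
RBCS3B: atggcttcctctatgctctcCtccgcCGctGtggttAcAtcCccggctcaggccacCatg
Of these 60 bases, 9 differ from RBCS1A in RBCS1B, 10 in RBCS2B and 8 in RBCS3B. Over the whole coding sequence, RBCS1A was 90.4% identical to RBCS1B and 90.6% to each of the other two. The chromosome 5 genes were 96.7% to 97.3% identical to one another.

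RBCS1A was the most abundant of the 32 genes, at 8375 FPKM in C3A and 12729 FPKM in the wild type. Its rank among all genes by FPKM was 2 in C3A and 3 in the wild type. It was 1.52-fold lower in C3A (95% counting interval 1.51 to 1.53). RBCS3B was at 2086 FPKM in C3A and 3751 FPKM in the wild type, 1.80-fold lower (1.77 to 1.82). RBCS1B was at 1311 FPKM in C3A and 1983 FPKM in the wild type, 1.51-fold lower (1.48 to 1.55). The lowest ratio of the family was that of RBCS2B, at 1026 FPKM in C3A and 2374 FPKM in the wild type, 2.31-fold lower (2.26 to 2.37). All 4 were thus lower, and RBCS2B was the only one past 2-fold.

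The counts of each RBCS gene were fractional, as when reads that match several genes are divided, but the family's counts summed to whole numbers, 159793 in C3A and 257997 in the wild type. Reads were therefore divided within the family, and its sum does not depend on the division. Summed FPKM was 12798 in C3A and 20837 in the wild type, 1.63-fold lower (1.62 to 1.64). RBCS1A made up 67.8% of the family's counts in C3A (67.6 to 68.1) and 63.4% in the wild type (63.2 to 63.6). RBCS2B made up 7.11% in C3A and 10.1% in the wild type. The shares and ratios of single RBCS genes are less certain than the sum. Of the 1745 windows of 150 bases (the read length) in the longest annotated RBCS1B transcript, 84 occur unchanged in another RBCS transcript. In RBCS3B 84 of 1061 do. None does in RBCS1A or RBCS2B, yet their counts were divided too, so identical windows do not account for all of the division. The chromosome 5 counts summed to 0.33 from a whole number in C3A and 0.48 in the wild type. Reads were therefore also divided between these genes and RBCS1A.

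RCA (AT2G39730), Rubisco activase, which frees the enzyme of inhibitory sugar phosphates, was at 1281 FPKM in C3A and 1827 FPKM in the wild type, 1.43-fold lower (1.41 to 1.45). The ratio of summed RBCS to RCA was 9.99 in C3A and 11.4 in the wild type on the FPKM scale. The chloroplast gene rbcL for the large subunit, named after its values were seen, was at 2.52 FPKM from 43.53 counts in C3A and 3.84 FPKM from 66 counts in the wild type. The libraries thus hold very little of it compared with the nuclear partner.

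In the reduction phase the isoforms differed. Phosphoglycerate kinase and glyceraldehyde-3-phosphate dehydrogenase turn the first product of Rubisco into triose phosphate. The chloroplast dehydrogenase is assembled from GAPA and GAPB subunits. GAPA1 (AT3G26650) was at 679 FPKM in C3A and 752 FPKM in the wild type, 1.11-fold lower (1.08 to 1.13). GAPA2 (AT1G12900), its close relative, was at 319 FPKM in C3A and 614 FPKM in the wild type, 1.92-fold lower (1.86 to 1.99). GAPB (AT1G42970) was at 458 FPKM in C3A and 781 FPKM in the wild type, 1.71-fold lower (1.67 to 1.75). The level of GAPA1 relative to GAPA2 was therefore 2.13 in C3A and 1.22 in the wild type, and that of both GAPA genes relative to GAPB was 2.18 in C3A and 1.75 in the wild type. All 3 had whole counts, although GAPA1 overlaps AT3G26640 on the same strand.

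PGK1 (AT3G12780) was at 557 FPKM in C3A and 698 FPKM in the wild type, 1.25-fold lower (1.22 to 1.28). PGK2 (AT1G56190) was the weaker of the pair, at 103 FPKM in C3A and 96.6 FPKM in the wild type, a log2 ratio of 0.09 that turned to between -0.070 and -0.058 after each rescaling. Their counts were divided with each other, and the pair summed to 660 FPKM in C3A and 795 FPKM in the wild type, 1.21-fold lower (1.18 to 1.23).

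In the regeneration phase all 8 genes were lower, with log2 ratios from -1.10 to -0.35. PRK (AT1G32060), phosphoribulokinase, makes the acceptor of carbon dioxide and acts in no other pathway. It lies on the plus strand of chromosome 1 at 11532199 to 11534639 and overlaps AT1G32070 on the opposite strand. It was at 421 FPKM in C3A and 905 FPKM in the wild type, 2.15-fold lower (2.1 to 2.2). Next came the light-regulated phosphatases, just short of 2-fold. SBPASE (AT3G55800), sedoheptulose-bisphosphatase, was at 181 FPKM in C3A and 349 FPKM in the wild type, 1.93-fold lower (1.85 to 2.0). HCEF1 (AT3G54050), the chloroplast fructose-bisphosphatase, was at 209 FPKM in C3A and 394 FPKM in the wild type, 1.89-fold lower (1.81 to 1.97). These enzymes, whose reactions are in effect irreversible, had the lowest ratios of the phase. The grouping of steps by reversibility was made after the values were seen and was not tested.

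The enzymes of reversible steps were nearer to 0. TKL1 (AT3G60750), a transketolase that moves carbon pairs between sugars, was at 592 FPKM in C3A and 902 FPKM in the wild type, 1.52-fold lower (1.5 to 1.55). PDTPI (AT2G21170), the plastid triose phosphate isomerase, was at 171 FPKM in C3A and 245 FPKM in the wild type, 1.43-fold lower (1.36 to 1.5). RPE (AT5G61410), ribulose-phosphate epimerase, was at 365 FPKM in C3A and 466 FPKM in the wild type, 1.28-fold lower (1.24 to 1.32). Of the plastid aldolases, FBA2 (AT4G38970) was at 854 FPKM in C3A and 1093 FPKM in the wild type, 1.28-fold lower (1.25 to 1.31). FBA1 (AT2G21330) was at 257 FPKM in C3A and 398 FPKM in the wild type, 1.55-fold lower (1.49 to 1.61). Their divided counts sum to within 0.01 of whole numbers, and the pair was 1.34-fold lower (1.32 to 1.37).

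CP12 proteins are small redox-sensitive linkers that hold the dehydrogenase and PRK in an inactive complex in the dark. CP12-1 (AT2G47400) was the other gene above 0, at 612 FPKM in C3A and 570 FPKM in the wild type, a log2 ratio of 0.10 that turned to between -0.061 and -0.052 after each rescaling. CP12-2 (AT3G62410) was at 306 FPKM in C3A and 460 FPKM in the wild type, 1.5-fold lower (1.42 to 1.58). Summed CP12-1 and CP12-2 stood at 2.18 times the level of PRK in C3A and 1.14 times in the wild type. That ratio is one of transcript levels per length, not of proteins.

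**Figure D2:**
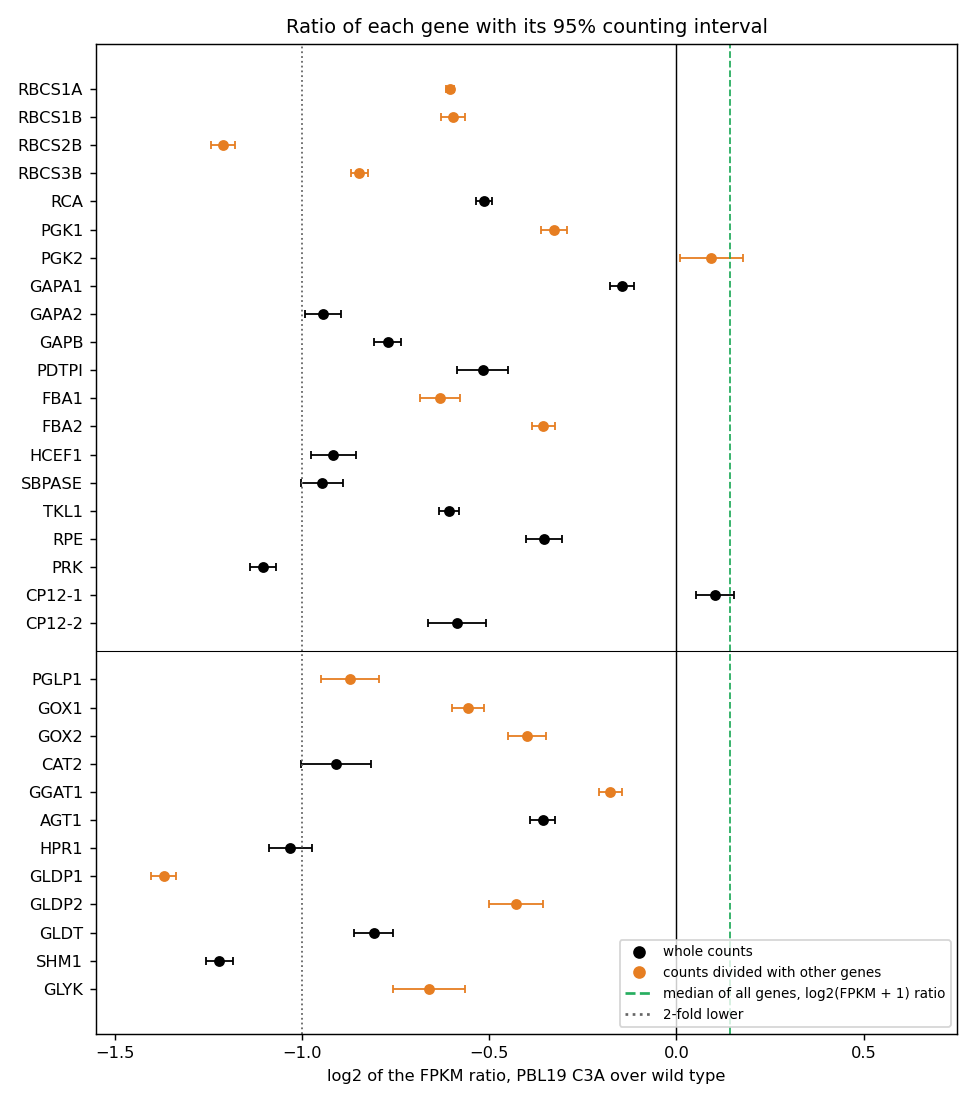
Log2 of the FPKM ratio, PBL19 C3A over wild type, for each gene, with its 95% counting interval. Black points have whole counts and orange points have counts divided with other genes, the dotted line marks 2-fold lower and the dashed line the median of all genes at 0.14. GLDP1, SHM1, RBCS2B, PRK and HPR1 lie left of the dotted line, and all points lie left of the dashed one.

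Photorespiration begins with PGLP1 (AT5G36700), the chloroplast phosphatase that releases glycolate. It was at 128 FPKM in C3A and 233 FPKM in the wild type, 1.83-fold lower (1.73 to 1.93). AT5G36790 carries an identical coding sequence of 1089 bases, so their reads are hard to part, and the pair summed was 1.80-fold lower (1.71 to 1.89). GOX1 and GOX2, neighbouring genes for the peroxisomal glycolate oxidases, were milder. GOX1 (AT3G14420) was at 440 FPKM in C3A and 648 FPKM in the wild type, 1.47-fold lower (1.43 to 1.52). GOX2 (AT3G14415) was at 278 FPKM in C3A and 367 FPKM in the wild type, 1.32-fold lower (1.27 to 1.36). The pair, whose divided counts sum to whole numbers, was 1.41-fold lower (1.38 to 1.44).

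The transaminases that make glycine in the peroxisome had ratios nearer to 1. GGAT1 (AT1G23310), glutamate:glyoxylate aminotransferase, was at 623 FPKM in C3A and 704 FPKM in the wild type, 1.13-fold lower (1.11 to 1.15). AGT1 (AT2G13360), serine:glyoxylate aminotransferase, was at 662 FPKM in C3A and 848 FPKM in the wild type, 1.28-fold lower (1.25 to 1.31). HPR1 (AT1G68010), the peroxisomal hydroxypyruvate reductase, acts just after AGT1 and was at 219 FPKM in C3A and 448 FPKM in the wild type. It was 2.04-fold lower, with an interval of 1.96 to 2.13 that reaches below 2-fold. The 6 peroxisomal genes spanned log2 ratios from -1.03 to -0.18, with a median of -0.48.

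Glycine decarboxylase is a complex of P, T, H and L proteins, and SHM1, serine hydroxymethyltransferase, joins its product to a further glycine. The 4 mitochondrial genes of the 32 had log2 ratios from -1.37 to -0.42, with a median of -1.01. GLDP1 (AT4G33010), for the P protein, spans chromosome 4 from 15926652 to 15931422 (minus strand) and overlaps AT4G33000 on the opposite strand. It was at 233 FPKM in C3A and 603 FPKM in the wild type, 2.58-fold lower (2.52 to 2.64), the lowest ratio of the 32. GLDP2 (AT2G26080), the second P protein gene, was at 56.2 FPKM in C3A and 75.5 FPKM in the wild type, 1.34-fold lower (1.28 to 1.41). GLDP1 thus stood at 4.16 times GLDP2 in C3A and 7.99 times in the wild type. Their divided counts sum to within 0.01 of whole numbers, and the pair was 2.34-fold lower (2.3 to 2.39).

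SHM1 (AT4G37930) has whole counts and overlaps no annotated gene. It spans chromosome 4 from 17831731 to 17835017 (minus strand). It was at 355 FPKM in C3A and 826 FPKM in the wild type, 2.33-fold lower (2.27 to 2.39). GLDT (AT1G11860), the T protein, was at 238 FPKM in C3A and 416 FPKM in the wild type, 1.75-fold lower (1.69 to 1.82). Genes for the other subunits, outside the 32, were lower by less in sum. The 3 H protein genes summed to 439 FPKM in C3A and 626 FPKM in the wild type, 1.43-fold lower (1.37 to 1.48). Singly, GDCH was 1.67-fold lower (1.59 to 1.77), GLDH3 1.25-fold lower (1.18 to 1.33) and GLDH2 1.17-fold lower (1.04 to 1.32). The L protein genes summed to 154 FPKM in C3A and 195 FPKM in the wild type, 1.27-fold lower (1.21 to 1.33). The last, shared with other mitochondrial dehydrogenases, went apart: mtLPD1 was 1.70-fold lower, at 82.6 FPKM in C3A and 140 FPKM in the wild type. mtLPD2 was 1.3-fold higher, at 71.4 FPKM in C3A and 55.1 FPKM in the wild type.

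GLYK (AT1G80380), glycerate kinase, closes the path in the chloroplast. It was at 69.8 FPKM in C3A and 110 FPKM in the wild type, 1.58-fold lower (1.48 to 1.69). CAT2 (AT4G35090), the catalase that removes photorespiratory peroxide, was at 50.4 FPKM in C3A and 94.5 FPKM in the wild type, 1.88-fold lower (1.76 to 2.0). It was the least abundant of the 32 in C3A. CAT3, another catalase, went the other way, at 4546 FPKM in C3A and 1980 FPKM in the wild type, 2.3-fold higher (2.27 to 2.32). CAT1 was at 34.5 FPKM in C3A and 38.3 FPKM in the wild type. Of all catalase counts, CAT2 took 1.36% in C3A and 5.42% in the wild type, and CAT3 took 97.8% in C3A and 92.4% in the wild type. CAT3 remained at least 2-fold higher after each rescaling, with log2 ratios from 1.04 to 1.2 over all settings.

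**Figure D3:**
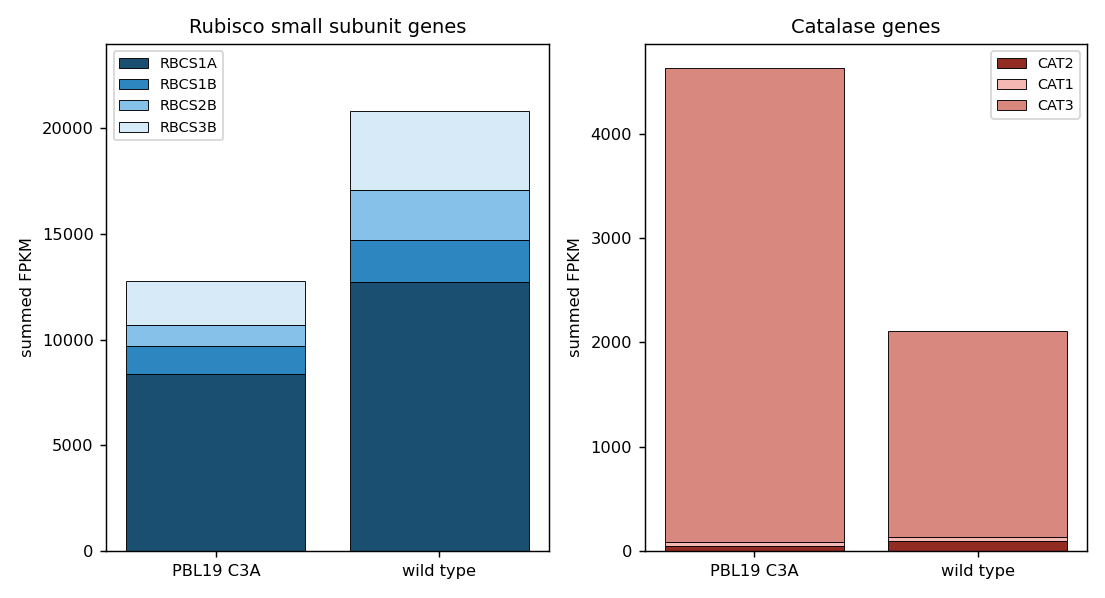
Summed FPKM of the Rubisco small subunit genes (left panel) and the catalase genes (right panel) in the PBL19 C3A and wild type libraries, 1 library each, split by gene. The small subunit sum is 12798 in C3A and 20837 in the wild type, whereas the catalase sum is 4631 in C3A and 2113 in the wild type and is nearly all CAT3.

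Other genes of the pathways showed the pattern in part. Of the 22 other photorespiration genes, including transporters and the recapture of ammonia, 2 were at least 2-fold lower and 1 was at least 2-fold higher, against 2.85% and 7.89% of all genes. Of the 22, 16 lay below 0, against 38.1% of all genes, and the median was -0.22. After each rescaling 3 were at least 2-fold lower, with PMDH2 added, against 3.96% to 4.38% of all genes. PLGG1, the chloroplast exporter of glycolate, was at 59.1 FPKM in C3A and 122 FPKM in the wild type, 2.06-fold lower (1.93 to 2.19). GGAT2 was at 12.6 FPKM in C3A and 27.3 FPKM in the wild type, 2.16-fold lower (1.88 to 2.49). Its counts were divided with those of GGAT1, and the pair summed was 1.15-fold lower (1.13 to 1.18). The one higher gene was CAT3. PMDH2, the peroxisomal malate dehydrogenase that supplies HPR1 with NADH, was at 318 FPKM in C3A and 594 FPKM in the wild type, 1.87-fold lower, and its partner PMDH1 was at 32.7 FPKM in C3A and 27.6 FPKM in the wild type. GLU1, the ferredoxin-dependent glutamate synthase, was at 87.1 FPKM in C3A and 156 FPKM in the wild type, and GS2, the chloroplast glutamine synthetase, at 371 FPKM in C3A and 528 FPKM in the wild type. The remaining 4 Calvin cycle genes lay on both sides of 0, with log2 ratios from -0.35 to 0.36. RPI3, ribose-phosphate isomerase, was at 169 FPKM in C3A and 176 FPKM in the wild type, FBA3 at 128 FPKM in C3A and 108 FPKM in the wild type, TKL2 at 11 FPKM in C3A and 14.3 FPKM in the wild type, and CP12-3 at 11.4 FPKM in C3A and 8.66 FPKM in the wild type.

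Factors that fold or regulate Rubisco lay on both sides of 0. Of 13, 1 was at least 2-fold lower and none was as much higher, against 2.85% and 7.89% of all genes. After each rescaling RBCX1 passed 2-fold lower as well, which made 2, against 3.96% to 4.38% of all genes. As deposited, 9 lay below 0, against 38.1% of all genes. Their median was -0.09 and their range -1.36 to 0.74. CBBY, a phosphatase that clears an inhibitory sugar phosphate made by Rubisco, was at 32.3 FPKM in C3A and 84.4 FPKM in the wild type, 2.62-fold lower (2.36 to 2.91), and it overlaps AT3G48425. The assembly chaperone RBCX1 was at 116 FPKM in C3A and 213 FPKM in the wild type, 1.84-fold lower (1.70 to 1.99). The chaperonin subunits CPN60A1 and CPN20, which fold Rubisco among other proteins, were the highest of the list. CPN60A1 was at 173 FPKM in C3A and 106 FPKM in the wild type, 1.63-fold higher (1.56 to 1.71). CPN20 was at 353 FPKM in C3A and 212 FPKM in the wild type, 1.67-fold higher (1.59 to 1.76). GLK1, a transcription factor of chloroplast development, was at 96.3 FPKM in C3A and 114 FPKM in the wild type, and GLK2 at 26.2 FPKM in C3A and 37.8 FPKM in the wild type.

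Isoforms of the same enzymes that serve glycolysis in the cytosol or lie outside photosynthesis were set beside the photosynthetic ones. Of 17, 1 was at least 2-fold lower and none as much higher, against 2.85% and 7.89% of all genes. Below 0 lay 8, against 38.1% of all genes, and the median was 0.04. After each rescaling 2 were at least 2-fold lower, against 3.96% to 4.38% of all genes, and 11 lay below 0, against 49.2% to 49.9%. The median was then between -0.12 and -0.11. The cytosolic dehydrogenase genes GAPC1 and GAPC2 summed to 1137 FPKM in C3A and 951 FPKM in the wild type, 1.2-fold higher (1.17 to 1.22). On the same scale GAPA1, GAPA2 and GAPB together stood at 1.28 times that sum in C3A and 2.26 times in the wild type. CTPI, the cytosolic triose phosphate isomerase, was at 256 FPKM in C3A and 263 FPKM in the wild type, and PGK3 at 113 FPKM in C3A and 110 FPKM in the wild type. SHM4, the cytosolic partner of SHM1, was at 71.0 FPKM in C3A and 83.9 FPKM in the wild type, so that SHM1 stood at 5.0 times SHM4 in C3A and 9.86 times in the wild type. HPR2, a cytosolic reductase that was counted above among the other photorespiration genes and not among the 17, was at 44.6 FPKM in C3A and 44.1 FPKM in the wild type. GAPCP2, a plastid dehydrogenase of glycolysis, was at 5.39 FPKM in C3A and 8.48 FPKM in the wild type, 1.57-fold lower (1.23 to 2.02). Its counts are divided, so this ratio is less certain. GAPCP1, named after its values were seen, has divided counts too. It was at 54.1 FPKM in C3A and 67.1 FPKM in the wild type, 1.24-fold lower (1.15 to 1.34). CYFBP, the cytosolic fructose-bisphosphatase, was at 99.1 FPKM in C3A and 137 FPKM in the wild type, 1.39-fold lower (1.32 to 1.46). The lowest of the list was FBA5, a cytosolic aldolase, at 275 FPKM in C3A and 881 FPKM in the wild type, 3.20-fold lower (3.10 to 3.31). It has divided counts and overlaps FBA7, which was at 19.6 FPKM in C3A and 39.2 FPKM in the wild type. FBA7 had a log2 ratio of -0.96 as deposited and of -1.15 to -1.12 after rescaling, which is the other gene counted above.

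**Figure D4:**
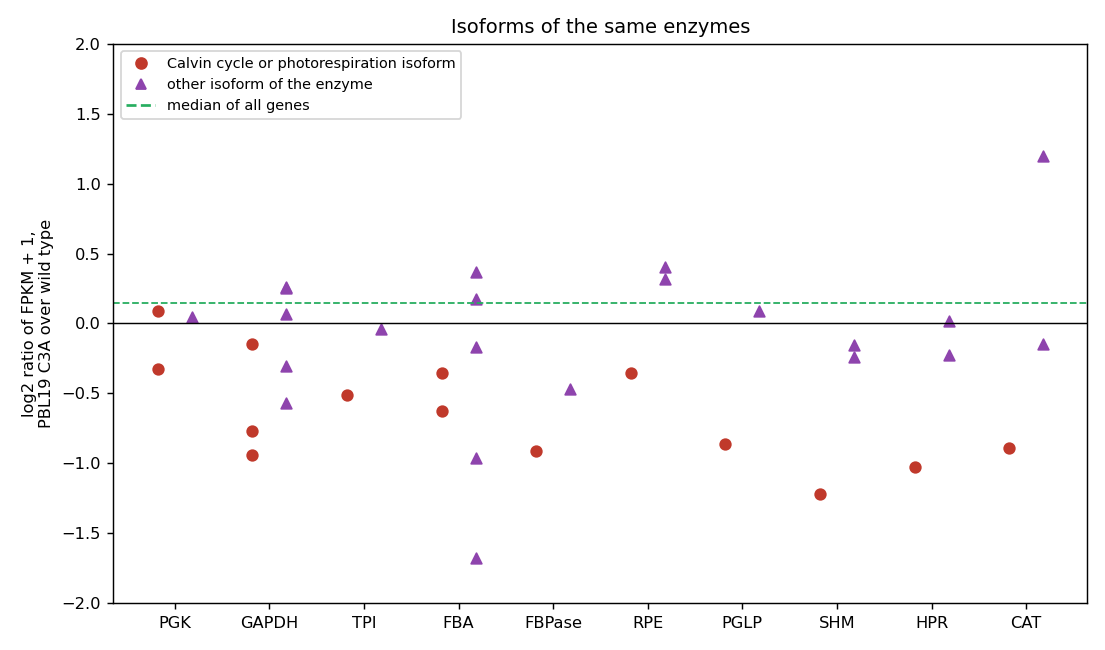
Log2 ratio of FPKM + 1, PBL19 C3A over wild type, for the Calvin cycle or photorespiration isoforms (red circles) and the other isoforms (purple triangles) of 10 enzymes, 1 point per gene. The dashed line is the median of all genes at 0.14. CAT3, at 1.2, is the highest point and FBA5, at -1.68, the lowest. Among the triangles, SHM2, HPR2, HPR3, CAT1 and CAT3 were counted in the text with the other photorespiration genes.

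The antenna and photosystem subunit genes, the nuclear partners of these enzymes in the light reactions, had a median of -0.79 over 33 genes. All 33 lay below 0, against 38.1% of all genes, with a range of -1.66 to -0.44. At least 2-fold lower were 6 of them on the deposited scale, against 2.85% of all genes, and 13 once the median gene was set to a ratio of 1, against 3.96%. The 6 (LHCB1.2, LHCB1.4, LHCB1.5, LHCB2.1, LHCB2.3 and LHCB3) all have divided counts, so their single ratios are less certain. The median of the 32 carbon cycle genes, -0.61, was closer to 0, and their range reached further up, to 0.10. No test of the difference between these lists was made. Photosynthesis genes follow the time of day, and the clock genes were read as well. Of 12, 11 had at least 1 FPKM. None of the 11 was at least 2-fold lower or higher on the log2(FPKM + 1) scale, against 2.85% and 7.89% of all genes. Below 0 lay 7 of the 11, against 38.1% of all genes, and their median was -0.09. CCA1, a morning gene, was at 0.84 FPKM in C3A and 2.44 FPKM in the wild type, and went past 2-fold lower with a pseudocount of 0.1, with TMM scaling and in counts per library size. Its counts were 24 in C3A and 62 in the wild type, and by plain FPKM it was 2.90-fold lower (1.79 to 4.87). LHY was at 0.35 FPKM in C3A and 0.61 FPKM in the wild type. TOC1, an evening gene, was at 86.1 FPKM in C3A and 75.8 FPKM in the wild type, PRR7 at 45.3 FPKM in C3A and 62.0 FPKM in the wild type, and GI at 47.7 FPKM in C3A and 65.7 FPKM in the wild type. The part of time of day in the results was not tested.

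**Figure D5:**
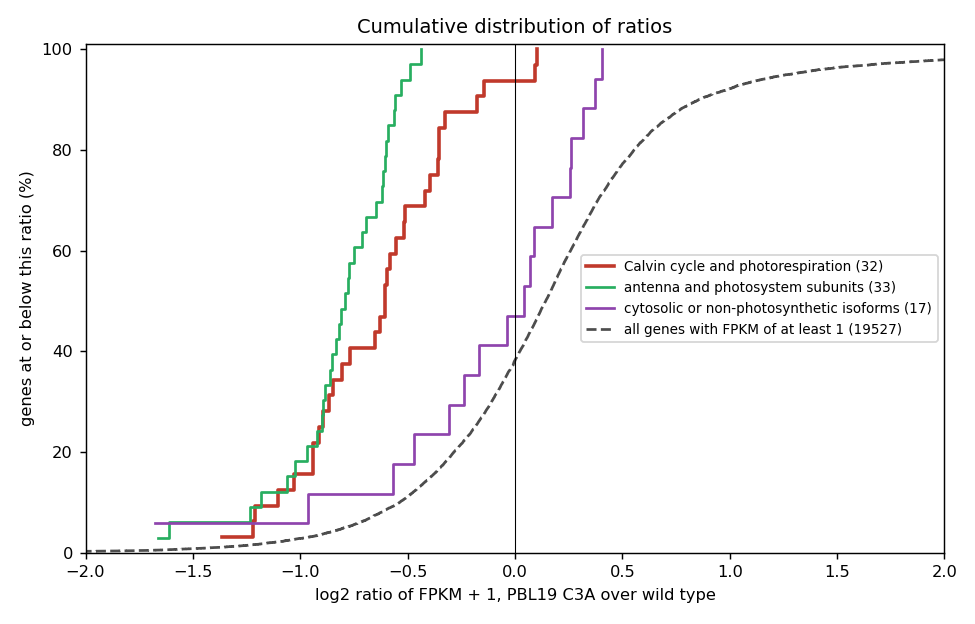
Share of genes at or below each log2 ratio of FPKM + 1, PBL19 C3A over wild type, for the 32 Calvin cycle and photorespiration genes (red), 33 antenna and photosystem genes (green), 17 cytosolic or non-photosynthetic isoforms (purple) and all 19527 genes with at least 1 FPKM (dashed). The red curve crosses its median at -0.61 and the dashed curve at 0.14.

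Because most of these genes were lower together, their promoters were read for short motifs known from light-regulated genes. The window ran from 250 bases before to 50 bases after the annotated gene start, on both strands. The G-box CACGTG was found in 6 of 32 windows, against 7.68% of 27443 nuclear protein-coding genes. The I-box GATAAG was found in 8 of 32 windows, against 14.6% of all. In the antenna and photosystem list the G-box was found in 10 of 33 windows and the I-box in 14 of 33, both larger shares than among the 32. The evening element AAAATATCT was found in 1 window, that of TKL1, against 2.82% of all. Of the 5 genes at least 2-fold lower as deposited, 3 held a G-box (GLDP1, PRK and RBCS2B), against 7.68% of all. An I-box was held by 1 (RBCS2B, with 3 copies), against 14.6% of all. The 5 were picked by their ratios, and a link between motif and ratio was not tested. The other G-boxes were those of HCEF1, of GGAT1 at 1.13-fold lower, and of CP12-1, which was not lower as deposited. Of the genes past 2-fold only after rescaling, HCEF1 alone held a G-box. A match is a description of letters and not of a bound site. The annotated start lay from 45 to 1364 genomic bases before the first coding base, with a median of 336, so the windows do not all sit at the same place relative to the protein. The 250 bases before the start of the genes at least 2-fold lower are shown, 5′ to 3′ on the gene's strand, from the TAIR10.1 genome, with G-boxes and I-boxes on either strand in capitals.
GLDP1 (chr4:15931423-15931672, minus strand): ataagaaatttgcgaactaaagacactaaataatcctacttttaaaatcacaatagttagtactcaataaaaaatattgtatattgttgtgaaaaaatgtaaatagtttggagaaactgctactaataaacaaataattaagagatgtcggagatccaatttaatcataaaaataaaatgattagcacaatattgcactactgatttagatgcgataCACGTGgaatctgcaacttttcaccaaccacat
PRK (chr1:11531949-11532198, plus strand): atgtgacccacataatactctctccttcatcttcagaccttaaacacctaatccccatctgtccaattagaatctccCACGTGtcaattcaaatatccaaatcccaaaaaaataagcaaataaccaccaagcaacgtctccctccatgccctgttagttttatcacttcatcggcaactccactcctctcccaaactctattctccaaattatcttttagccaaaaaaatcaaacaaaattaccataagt
RBCS2B (chr5:15382072-15382321, minus strand): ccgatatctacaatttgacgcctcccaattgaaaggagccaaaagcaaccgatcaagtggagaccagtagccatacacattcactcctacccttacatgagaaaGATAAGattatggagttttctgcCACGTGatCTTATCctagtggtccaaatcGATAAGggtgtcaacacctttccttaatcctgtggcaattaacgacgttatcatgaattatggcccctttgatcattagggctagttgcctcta
SHM1 (chr4:17835018-17835267, minus strand): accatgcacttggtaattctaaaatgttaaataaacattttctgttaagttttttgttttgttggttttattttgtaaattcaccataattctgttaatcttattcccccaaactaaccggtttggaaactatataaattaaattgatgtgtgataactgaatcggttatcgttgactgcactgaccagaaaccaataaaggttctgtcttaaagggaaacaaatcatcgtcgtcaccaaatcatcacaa
HPR1 (chr1:25492943-25493192, plus strand): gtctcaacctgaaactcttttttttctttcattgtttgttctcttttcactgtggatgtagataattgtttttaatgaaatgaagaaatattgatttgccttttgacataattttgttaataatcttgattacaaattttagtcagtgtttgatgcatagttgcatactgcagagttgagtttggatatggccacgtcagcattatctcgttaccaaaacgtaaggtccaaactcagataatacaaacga
Counted from the annotated start, the G-box begins at -33 in GLDP1, at -173 in PRK and at -123 in RBCS2B, where I-boxes begin at -146, -115 and -94. The SHM1 and HPR1 windows held none of the 3 motifs searched.

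Of the 32 genes, 15 have counts divided with other genes and 9 share bases with a neighbouring gene, which is antisense for 7. The sources used here do not state whether counting used strand, so the values of the 7 (RCA, PGK1, HCEF1, PRK, GOX1, CAT2 and GLDP1) are less certain. Of the 11 genes with whole counts and no overlap, 10 lay below 0, against 38.1% of all genes. Their median was -0.77, against 0.14 for all genes. At least 2-fold lower were 2 of them, SHM1 and HPR1, against 2.85% of all genes. The counting interval of HPR1, 1.96 to 2.13, reaches below 2-fold.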

How the data were processed

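Total RNA was extracted from rosettes and sequenced as 150 bp paired-end reads, per the labels' protocols. Reads were handled with Trimmomatic 0.36 and HISAT on TAIR10, per the submitters' processing notes. The quantifier and strand setting are not given in the sources used here. The authors' tables hold, per the file headers, an expected count per gene (estimated, hence often fractional), a gene length and an FPKM. Only genes above 0 are listed, and an unlisted gene was set to 0.

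The ratio was log2 of FPKM + 1, C3A over wild type, over genes with at least 1 FPKM in either library. It understates differences of low genes. A fold for a single gene is the plain FPKM ratio, and its 95% interval is Clopper-Pearson's, conditional on the sum of both rounded counts. Without molecular identifiers, reads may repeat molecules, so intervals cover counting error only. There was no test between genotypes. A 2-fold threshold described the genes, with 1.5-fold as a second one. Members and lists were chosen with earlier results of these data known. All 32 genes are named, and of other lists those past 2-fold or up to 4 others by size of ratio, but RPI3, GS2, PMDH1, CAT1, GLK1, GLK2, SHM4, HPR2, CTPI, PGK3, GAPC1, GAPC2, the subunit genes of glycine decarboxylase and most clock genes were named for their role after their values were seen. Protein sequences were not used here, so the protein comparison planned was made on coding sequences. Coordinates and overlaps are those of RefSeq's TAIR10.1 annotation. Calculations used python 3.11.15, pandas 2.3.3, numpy 2.4.6, scipy 1.17.1, biopython 1.88, matplotlib 3.10.9, and edgeR 4.0.16 in R 4.3.3 for TMM normalization factors only. Ratios and intervals were tested on simulated counts with counting error only. Divided reads, repeated reads and differences between plants were not simulated. Alternatives were other scalings, no gene length, another pseudocount, other filters and summed gene families.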

Additional observations from a re-analysis of the deposited data

How the results depend on the processing

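The median of all genes, 0.14 on the log2 scale as deposited, became 0.00 once set to a ratio of 1, 0.00 with scaling without the 100 most abundant genes and 0.01 with TMM-scaled counts. Under each of these 3 scalings, 11 of the 32 genes in place of 5 were at least 2-fold lower, adding RBCS3B, GAPA2, HCEF1, SBPASE, PGLP1 and CAT2, against 3.96%, 3.96% and 4.38% of all genes. On the deposited scale, at 1.5-fold in place of 2-fold the count was 18, against 8.9% of all genes. All 32 genes were below 0 under these scalings, against 49.8%, 49.9% and 49.2% of all genes, since the values above it changed sign: PGK2 was at -0.068, -0.070 and -0.058, and CP12-1 at -0.060, -0.061 and -0.052, in that order. Of 160 recomputed ratios of single genes (5 alternatives each), the other 154 kept their sign. The median of the 32 genes lay between -0.77 and -0.60 over every setting tried, the sums of gene families included. The share of the 32 genes was 3.24% in C3A and 5.11% in the wild type of summed FPKM, and 3.96% in C3A and 6.60% in the wild type of the counts left without the 100 most abundant other genes. RBCS1A made up 65.4% of the family's FPKM in C3A and 61.1% in the wild type. Gene families were also summed where their divided counts make whole numbers, an alternative chosen after seeing the data. That left 24 of 25 below 0 and 4 at least 2-fold lower, against 38.1% and 2.85% of all genes as deposited. Filters on low FPKM could not change the values of the 32 genes, since all 32 exceed 5 FPKM. The shares and median of all genes were not recomputed under these filters. No paired analysis was possible because there was 1 library per genotype, and for the same reason no replicate could be left out. Depth does not limit these genes, but counting intervals do not cover differences between plants.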
